A study of Mus musculus with 12 samples.

Results

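Translocator protein, the proteins that bind acyl-CoA around it, the voltage-dependent anion channels and a late endosomal cholesterol carrier were examined in mouse Leydig cells as 8 genes, Tspo, Dbi, Dbil5, Acbd3, Vdac1, Vdac2, Vdac3 and Stard3. The members were the non-control probes whose gene name in the array files is one of these 8 symbols, which gave 13 of 41174 probes and 8 of 27670 gene names. Of the 13 probes, 12 were detected by the filter described here, and each of the 8 genes kept at least 1 detected probe. Detection required a signal well above background in 2 or more mice, each on 50% or more of its arrays.

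The DEHP mice were adult C57BL/6J males that received the plasticiser di-(2-ethylhexyl) phthalate (DEHP) by gavage for 21 days from 18 weeks of age, at a daily dose of 200 mg/kg dissolved in corn oil. The vehicle mice were males of the same strain and age given corn oil alone. Leydig cells, the testosterone-producing cells between the seminiferous tubules, were collected by laser capture microdissection of frozen testis at 21 weeks of age, and the RNA of each single mouse was amplified in 2 rounds. On two-colour Agilent arrays, DEHP mice 1 and 4 were each hybridised against vehicle mice 1, 2 and 4 in both dye orientations, so 12 arrays hold 5 animals. The labels speak of 4 mice in each exposure group, and the other mice are not analysed here.

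Steroid hormone synthesis begins when cholesterol reaches the inner mitochondrial membrane, where the side-chain cleavage enzyme converts it to pregnenolone. TSPO is an abundant cholesterol- and drug-binding protein of the outer mitochondrial membrane of steroid-producing cells. It was long held to be needed for this transfer, a role that knockout mice have put in dispute. DBI, the acyl-CoA binding protein, binds long-chain acyl-CoA esters and gives rise to peptides that bind TSPO, VDACs form the pores of the same membrane, and STARD3 moves cholesterol at late endosomes.

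The probes show how far neighbouring measurements are independent, and the sequences are those of the array files, 5′ to 3′, with positions on mouse assembly mm7. The pair for Tspo lies at chr15:83654542-83654601 and chr15:83654536-83654595, starts 6 bases apart, and shares 54 bases, shown in capitals, so the pair does not give independent measurements.
Tspo A_51_P222657: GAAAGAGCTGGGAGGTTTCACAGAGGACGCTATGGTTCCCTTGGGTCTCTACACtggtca
Tspo A_52_P112017: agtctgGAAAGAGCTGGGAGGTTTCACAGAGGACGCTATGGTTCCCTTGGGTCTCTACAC

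Dbi and Dbil5 are related genes with 1 probe each, Dbi on the minus strand between chr1:119980125-119983036 and Dbil5 at chr11:76300027-76300086. The Dbi coordinates span 2912 bases for a probe of 60 bases. In the best ungapped alignment of the pair, 32 of 53 bases were identical (60.4%, in capitals), with a longest identical run of 8 bases. Cross-hybridisation between them was not tested.
Dbi A_51_P399697: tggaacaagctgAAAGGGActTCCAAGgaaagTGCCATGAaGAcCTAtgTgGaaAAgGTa
Dbil5 A_52_P169082: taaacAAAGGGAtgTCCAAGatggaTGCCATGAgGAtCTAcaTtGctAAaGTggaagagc

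Acbd3 has 3 probes. The brightest lies at chr1:180733323-180733382 and stands for the gene. The other probes, shown because their values differed from it, lie at chr1:180726659-180726718 and chr1:180726699-180726758, share the 20 bases in capitals, and the nearer of them starts 6624 bases from the brightest.
Acbd3 A_52_P58006: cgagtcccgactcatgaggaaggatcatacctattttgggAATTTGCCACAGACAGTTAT
Acbd3 A_51_P326764: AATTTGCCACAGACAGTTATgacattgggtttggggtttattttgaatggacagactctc

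Vdac1 was read by probes at chr11:52345988-52346047 (the brighter) and chr11:52345815-52345874, whose starts lie 173 bases apart. Vdac2 was read at chr14:19504465-19504524, Vdac3 on the minus strand at chr8:21362573-21362632, and Stard3 at chr11:98489977-98490036. The other Vdac3 probe, at chr8:21368316-21368375, was well above background in 0 of 24 array channels and entered no test. Whether each probe lies in a coding exon or an untranslated region was not analysed here.

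Spots well above background made up 45.4% to 54.4% of the probes in red and 35.5% to 46.1% in green. The Leydig cell genes Star, Cyp11a1 and Insl3 were well above background in 12 of 12 DEHP channels and 12 of 12 vehicle channels. So were Prm1 and Tnp1, which package the DNA of spermatids, so RNA of germ cells was measured in the extracts of both groups. Of 12 Leydig cell markers, 9 were well above background in every DEHP channel and 10 in every vehicle channel, and of 29 measured spermatid markers 27 were in both. Fewer cells of a type and less RNA per cell cannot be told apart in such extracts.

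Each value given for a mouse is a log2 level relative to the mean of the 5 mice, estimated from all arrays of that mouse, 6 for a DEHP mouse and 4 for a vehicle mouse. Values of different genes come from different probes, so only differences between mice are compared. None of the 8 genes passed the test between DEHP and vehicle mice. At an adjusted p of 0.05 from limma, 0 of 8 were called, against 0% of all 15830 genes tested. At an unadjusted p of 0.05, 0 of 8 were called, against 0.859% of all genes. Both DEHP mice lay above every vehicle mouse, or both below, for 0 of 8 members, against 9.17% of all genes (3.95% above and 5.22% below). Of the 8 differences, 2 were above 0 and 6 below, with a median of -0.07. Over all 15830 genes, 7653 were above 0 and 8177 below, with a median of -0.01. The adjusted p from limma was 1.00 for every member, and the exact two-sided permutation test over 10 arrangements of the 5 mice cannot give a p below 0.1.

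**Figure D1:**
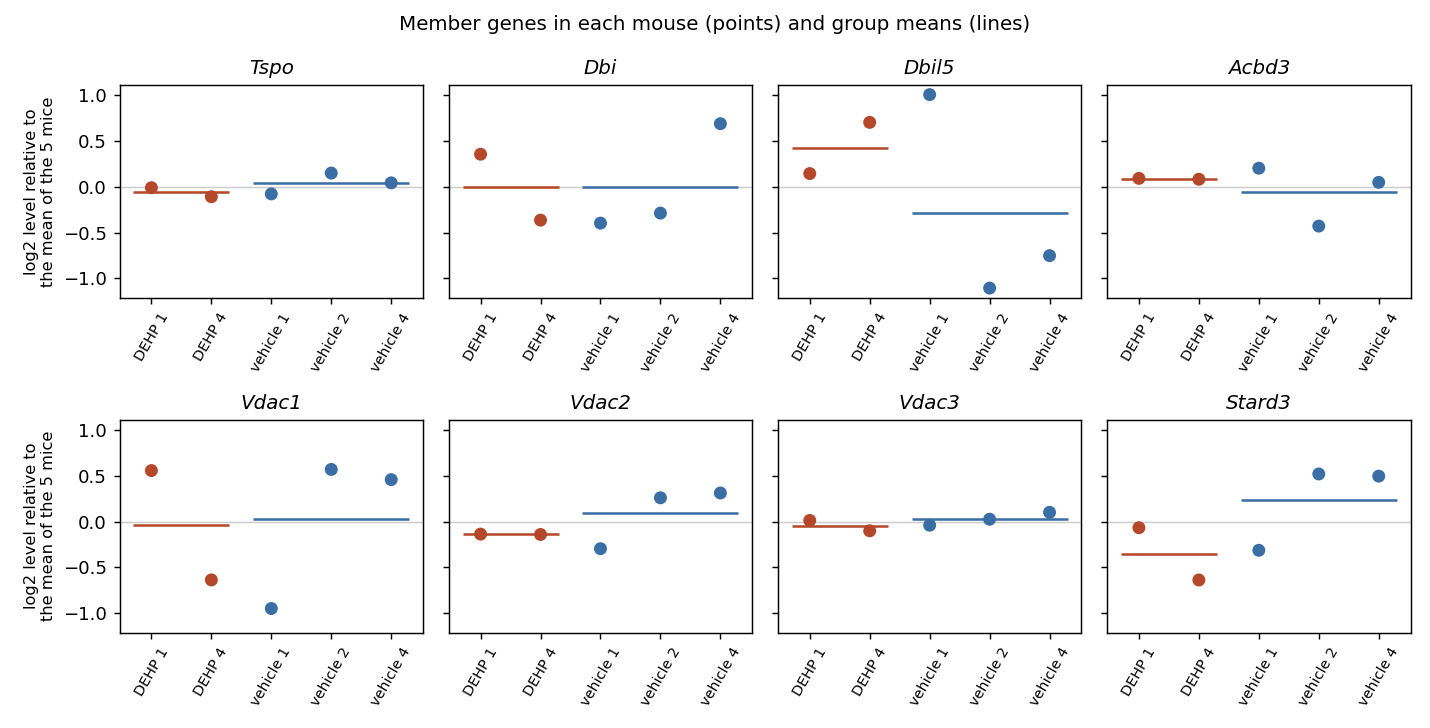
Log2 level of each of the 8 genes relative to the mean of the 5 mice (y axis), for DEHP mice 1 and 4 (red points) and vehicle mice 1, 2 and 4 (blue points), with the mean of each group as a line. The points of the groups overlap in every panel, and vehicle mouse 1 stands highest for Dbil5 at 1.01 and lowest for Vdac1 at -0.95.

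Tspo, the receptor itself, was a dim measurement. Its main probe was well above background in 4 of 12 DEHP channels and 9 of 12 vehicle channels, and the overlapping probe in 3 of 12 and 5 of 12. The main probe reached 2 of 6 arrays in each DEHP mouse, and 2, 4 and 3 of 4 in vehicle mice 1, 2 and 4. Tspo thus passed the filter through the vehicle mice, but its signal was near background in both groups. Its log2 intensity, scaled between arrays, was 6.46 and 6.22 in DEHP mice 1 and 4. In vehicle mice 1, 2 and 4 it was 6.41, 6.50 and 6.41. The undetected Vdac3 probe lay between 5.89 and 5.97 in the 5 mice. The main probe read -0.01 and -0.11 in DEHP mice 1 and 4, against -0.08, 0.15 and 0.04 in vehicle mice 1, 2 and 4. The groups overlapped, and no neighbours in the order of the 5 mice differed beyond the error of the arrays, with limma adjusted p between 0.251 and 0.682. At the ends of the order, DEHP mouse 4 minus vehicle mouse 2 was -0.26 (SE 0.06 between arrays), which compares single extracts. This pair was picked as the lowest and highest mouse after ranking. A test of it would not account for that choice, so no conclusion is drawn from one. The DEHP minus vehicle difference was -0.10 (SE 0.19, 95% interval -0.57 to 0.37, n = 2 and 3, exact permutation p = 0.4). With the scanner software's processed signals it was -0.61 and still not called (0 of 8 members). The overlapping probe gave -0.01 and -0.13 in the DEHP mice and -0.09, 0.15 and 0.08 in the vehicle mice, which is the same order of mice as the first.

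Dbi, which encodes the acyl-CoA binding protein and precursor of TSPO ligands, was well above background in all 12 channels of each group. Its values were 0.36 and -0.36 in DEHP mice 1 and 4, against -0.40, -0.29 and 0.69 in vehicle mice 1, 2 and 4. DEHP mouse 1 and vehicle mouse 4 stood high, and the other mice stood within 0.11 of each other at the low end. DEHP minus vehicle came to -0.01 (SE 0.42, 95% interval -1.04 to 1.03, exact permutation p = 1), against a range of 0.72 within the DEHP mice and 1.09 within the vehicle mice. Without one or another mouse it ran between -0.37 and 0.35.

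Dbil5 encodes an endozepine-like peptide related to DBI that in mice is known from late haploid germ cells. It read 0.15 and 0.70 in DEHP mice 1 and 4, against 1.01, -1.11 and -0.75 in vehicle mice 1, 2 and 4. It varied most of the members: vehicle mouse 1 was the highest of the 5, the DEHP mice lay between, and vehicle mice 2 and 4 were lowest. The group difference was 0.71 (SE 0.65, 95% interval -0.91 to 2.33, exact permutation p = 0.5). It was 0.30 without vehicle mouse 2 and 1.35 without vehicle mouse 1. Every step in the order of the 5 mice was larger than the error between arrays, with limma adjusted p between 3.16e-06 and 0.00766. The single arrays showed the same: DEHP mouse 4 over vehicle mouse 2 gave 1.70 and 1.93 in the opposite dye orientations, and DEHP mouse 1 over vehicle mouse 1 gave -0.74 and -0.96.

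Acbd3, a Golgi protein that binds TSPO and a regulatory subunit of protein kinase A, read 0.09 and 0.08 in DEHP mice 1 and 4 with its brightest probe, against 0.20, -0.43 and 0.05 in vehicle mice 1, 2 and 4. Vehicle mouse 2 stood low and the other 4 mice lay within 0.15 of each other. DEHP minus vehicle came to 0.15 (SE 0.25, 95% interval -0.48 to 0.77, exact permutation p = 0.8). It was -0.04 without vehicle mouse 2.

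The other Acbd3 probes gave another order of the mice. A_52_P58006 read -0.13 and 0.71 in DEHP mice 1 and 4, against 0.10, -0.37 and -0.31 in the vehicle mice. A_51_P326764 read -0.12 and 0.58 in the DEHP mice, against 0.19, -0.31 and -0.34 in the vehicle mice. DEHP mouse 4 was thus the highest of the 5 by these probes, while the brightest probe placed it next to DEHP mouse 1. DEHP mouse 4 minus DEHP mouse 1 was 0.84 (SE 0.06, limma adjusted p 2.92e-07) and 0.70 (SE 0.11, adjusted p 0.000117) by these probes, against -0.01 (SE 0.05, adjusted p 0.874) by the brightest. The probes overlap in sequence, so they are not independent of each other. Their group differences, 0.48 and 0.39, were not called by limma (adjusted p 1.00 for both).

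**Figure D2:**
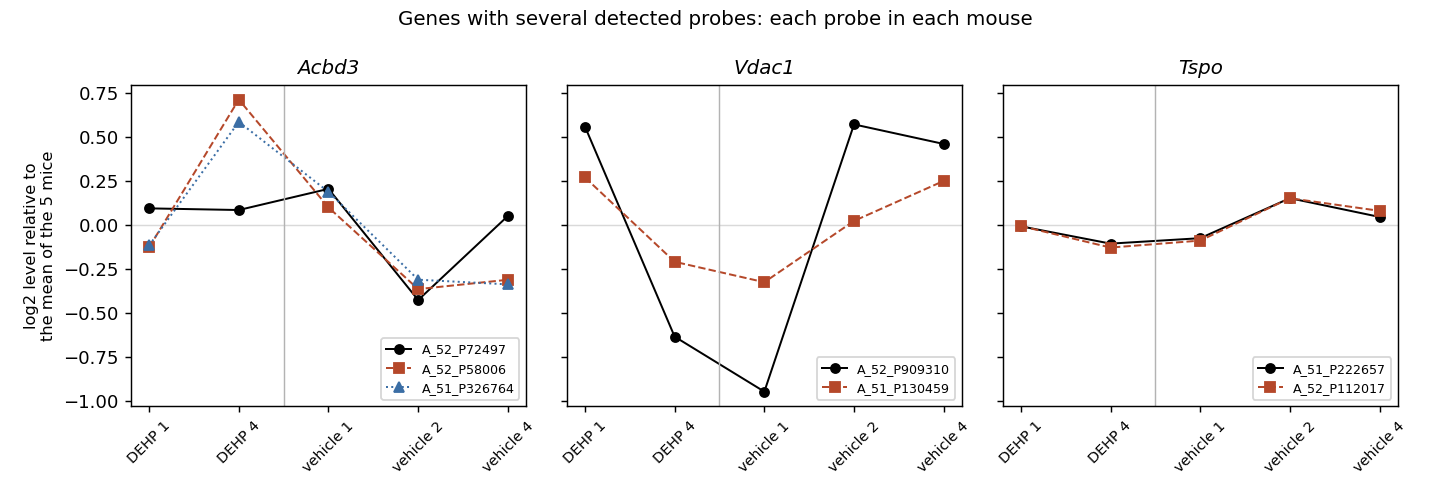
Log2 level relative to the mean of the 5 mice (y axis) by each detected probe of Acbd3, Vdac1 and Tspo, with 1 line per probe, DEHP mice on the left of the vertical line and vehicle mice on its right. The Acbd3 probes part in DEHP mouse 4, where they read 0.08, 0.71 and 0.58, the Vdac1 probes keep DEHP mouse 4 and vehicle mouse 1 low with different spread, and the Tspo probes run together.

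Vdac1, the most studied channel of the outer membrane and a docking site for hexokinase, read 0.56 and -0.64 in DEHP mice 1 and 4, against -0.95, 0.57 and 0.46 in vehicle mice 1, 2 and 4. The mice fell into a high set of DEHP mouse 1 and vehicle mice 2 and 4 and a low set of 1 mouse from each group. Neighbours in the high set did not differ beyond the error of the arrays (limma adjusted p 0.0924 and 0.843). Within the low set, DEHP mouse 4 did stand above vehicle mouse 1, by 0.31 (limma adjusted p 0.00013). The group difference was -0.07 (SE 0.59, 95% interval -1.52 to 1.39, exact permutation p = 0.9), and leaving out each mouse in turn moved it between -0.66 and 0.53. The second probe read 0.27 and -0.21 in the DEHP mice, against -0.33, 0.02 and 0.25 in the vehicle mice. It kept DEHP mouse 4 and vehicle mouse 1 lowest, with a smaller spread.

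Vdac2, which also holds the cell death protein BAK at mitochondria, read -0.14 and -0.14 in DEHP mice 1 and 4, against -0.30, 0.26 and 0.31 in vehicle mice 1, 2 and 4. The DEHP mice lay between vehicle mouse 1, which was lowest, and vehicle mice 2 and 4. DEHP minus vehicle came to -0.23 (SE 0.26, 95% interval -0.86 to 0.40, exact permutation p = 0.4).

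Vdac3, a channel that mouse sperm need for normal movement, varied little between mice. It read 0.01 and -0.10 in DEHP mice 1 and 4, against -0.04, 0.03 and 0.10 in vehicle mice 1, 2 and 4. The groups overlapped, and no neighbours in the order of the mice differed beyond the error of the arrays (limma adjusted p 0.181 to 0.788). At the ends of the order, DEHP mouse 4 minus vehicle mouse 4 was -0.20 (SE 0.04 between arrays), which compares single extracts. As for Tspo, the pair was picked after ranking, so no conclusion is drawn from a test of it. The group difference was -0.07 (SE 0.19, 95% interval -0.53 to 0.39, exact permutation p = 0.4), and it was 0.05 when each array was only centred on its median.

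Stard3, the late endosomal relative of the steroidogenic acute regulatory protein, had the largest negative difference among the members. It read -0.07 and -0.64 in DEHP mice 1 and 4, against -0.31, 0.52 and 0.50 in vehicle mice 1, 2 and 4. DEHP mouse 4 was lowest, and vehicle mouse 1 lay between the DEHP mice. Vehicle mice 2 and 4 were highest and differed from each other within the error of the arrays (adjusted p 0.751 from limma). The group difference was -0.59 (SE 0.35, 95% interval -1.45 to 0.28, exact permutation p = 0.3), and it stayed between -0.87 and -0.30 when each mouse was left out in turn. Treating the 12 arrays as independent would call it (limma adjusted p 0.0199) together with 2123 of the 15830 genes, although the arrays repeat 5 animals.

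**Figure D3:**
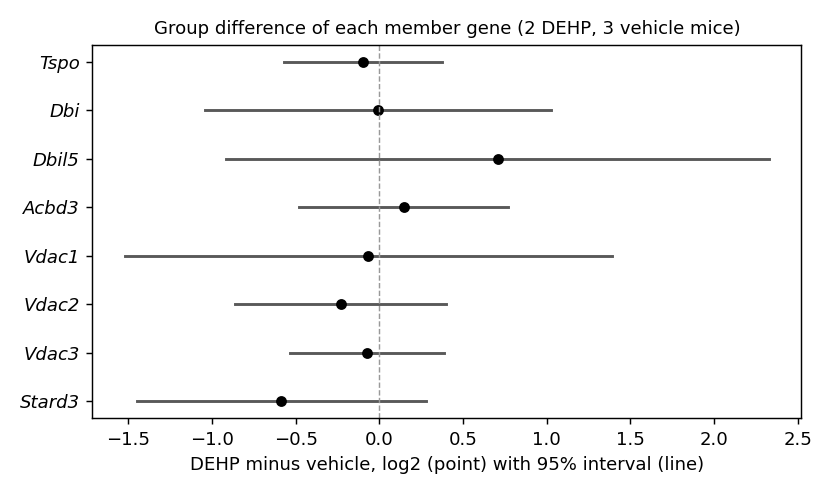
DEHP minus vehicle difference on the log2 scale for each of the 8 genes (point) with its 95% interval from limma (line), from 2 DEHP and 3 vehicle mice. Every interval crosses 0, and the widest, of Dbil5, runs from -0.91 to 2.33.

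For 8 of 8 members the range of the mice within a group was larger than the difference between the groups. This was close to the share of all genes tested, 95.8%. The intervals leave sizeable changes possible: they reach 1.39 upward and -1.52 downward for Vdac1, and those of Tspo and Vdac3 are the narrowest. The Tspo interval rests on a dim probe and holds for the main processing only. With the scanner software's processed signals the Tspo difference was -0.61, which lies outside it.

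The extracts of single mice could be told apart with the repeated arrays, which says nothing of DEHP. DEHP mouse 4 differed from DEHP mouse 1 at a limma adjusted p of 0.05 for 77.4% of all genes tested, 36.3% higher and 41.1% lower. Among the members, 1 was higher in DEHP mouse 4, Dbil5 by 0.56 (SE 0.08, adjusted p 4.29e-05). Another 4 were lower: Vdac1 by -1.19 (SE 0.05, adjusted p 1.04e-09), or 0.437 times the level in DEHP mouse 1, and Dbi by -0.72 (SE 0.06, adjusted p 3.04e-07). Stard3 differed by -0.57 (SE 0.05, limma adjusted p 6.41e-07) and Vdac3 by -0.11 (SE 0.04, adjusted p 0.0176). Tspo (-0.10), Acbd3 (-0.01) and Vdac2 (-0.00) were not called.

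These directions depend on how the arrays are normalized. With each array centred on its median in place of loess, the median of all genes in DEHP mouse 4 minus DEHP mouse 1 moved to 0.30, against -0.05 with loess, and 77% of the calls were higher, against 46.9%. Members called were then Dbil5, Acbd3, Vdac2 and Vdac3 higher and Vdac1 lower. Relative to the median of all genes under median centring, Vdac1 stood at -0.75, Tspo at -0.27, Dbi at -0.24, Stard3 at -0.16, Acbd3 at 0.19 and Dbil5 at 1.14. The member that changed side of that median was Vdac3, at 0.69 with median centring and -0.07 with loess. Vdac2 stood at 0.78 with median centring and 0.04 with loess.

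Vehicle mouse 1, set against the mean of the other vehicle mice (2 and 4), differed for 72.1% of all genes tested, 33.9% higher and 38.2% lower. This contrast was chosen because vehicle mouse 1 stands apart in earlier results of these data, so its calls and p-values are not independent of that choice. All 8 members were called. Dbil5 was higher by 1.94 (SE 0.08, limma adjusted p 2.42e-09), or 3.83-fold, and Acbd3 by 0.39 (SE 0.05, adjusted p 4.52e-05). Vdac1 was lower, at -1.46 (SE 0.05, limma adjusted p 5.28e-10), or 0.363 times the level in the other vehicle mice. Stard3 was at -0.82, Dbi at -0.60 and Vdac2 at -0.58, with SE of 0.05, 0.06 and 0.04. The smallest differences, Tspo at -0.17 (limma adjusted p 0.0333) and Vdac3 at -0.10 (adjusted p 0.0371), did not pass in every alternative processing, and Vdac3 was at 0.20 under median centring.

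Vdac1, Dbi, Stard3 and Vdac3 were lower in both contrasts, which is 4 of 8 members against 28.5% of all genes. Dbil5 was higher in both, 1 of 8 members against 24.8%. Under median centring Vdac1 was the 1 member lower in both, and Dbil5 and Acbd3 were higher in both. Both contrasts come from the same 12 arrays, though from different mice. The markers of cell types moved in the same mice. Leydig cell markers had medians of 0.71 and -0.76 in DEHP mice 1 and 4, against -0.55, 0.29 and 0.46 in vehicle mice 1, 2 and 4. At a limma adjusted p of 0.05, 11 of the 12 were called lower in DEHP mouse 4 than in DEHP mouse 1 and 0 higher. The shares of all genes were 41.1% lower and 36.3% higher. Spermatid markers had medians of -0.05 and 0.70 in the DEHP mice, against 0.29, -0.56 and -0.39 in the vehicle mice. By the same threshold, 28 of 29 were called higher in DEHP mouse 4 than in DEHP mouse 1. In vehicle mouse 1, 10 of the 12 Leydig cell markers were called lower and 26 of 29 spermatid markers higher than in vehicle mice 2 and 4. The shares of all genes were 38.2% lower and 33.9% higher. Some other lists were low in these mice too. In DEHP mouse 4 and vehicle mouse 1, endothelial markers had medians of -0.22 and -0.55 and macrophage markers -0.24 and -0.32. Peritubular myoid markers had -0.53 and -0.29, and blood markers -0.31 and -0.71, so the low values were not particular to Leydig cell markers. They did not extend to every list: Sertoli cell markers had -0.07 and 0.03, and spermatocyte markers 0.19 and 0.34. The part of the cell mixture in the values of the members was not tested.

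**Figure D4:**
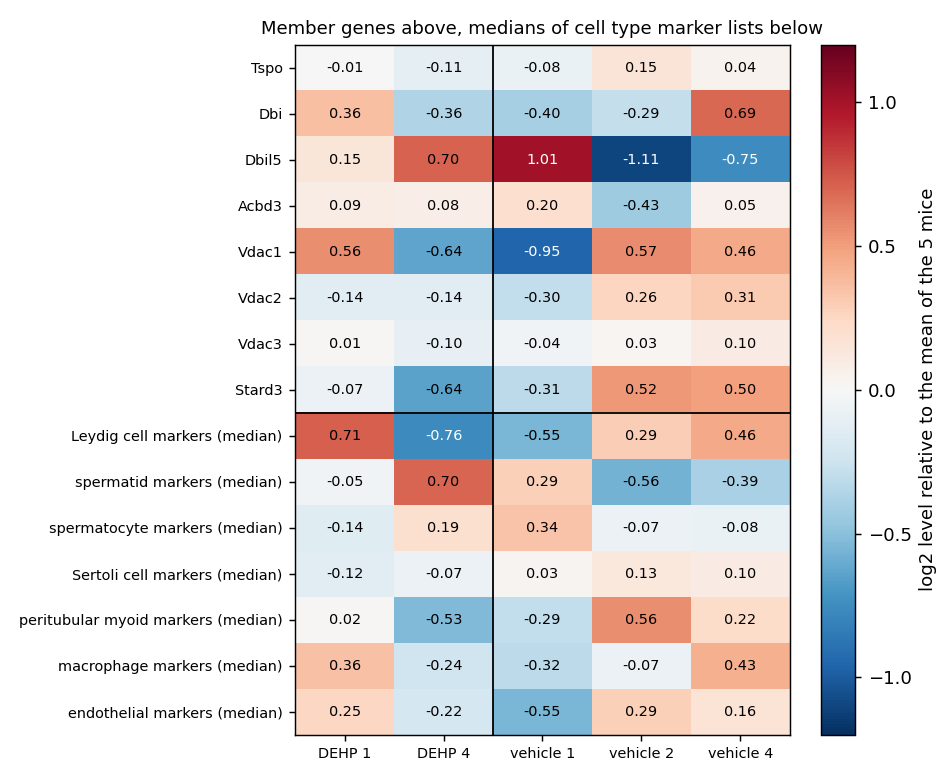
Log2 level relative to the mean of the 5 mice (colour and printed value) for the 8 genes in the upper rows and the medians of 7 marker lists in the lower rows, with DEHP mice in the left columns and vehicle mice in the right. Vdac1 and the Leydig cell markers are both low in DEHP mouse 4 (-0.64 and -0.76) and vehicle mouse 1 (-0.95 and -0.55). The myoid, macrophage and endothelial medians are below 0 there too, while the Sertoli medians are -0.07 and 0.03 and the spermatocyte medians 0.19 and 0.34. Dbil5 and the spermatid markers are both high in these mice.

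By group, Leydig cell markers had 2 of 12 differences above 0 and a median of -0.14, and limma called 0 of them, also at an unadjusted p of 0.05. Over all genes tested, 7653 of 15830 differences were above 0, and 0.859% had an unadjusted limma p under 0.05. Star was at 0.08 (SE 0.63), Cyp11a1 at -0.38 (SE 0.59) and Insl3 at -0.32 (SE 0.83). Spermatid markers had 28 of 29 differences above 0 and a median of 0.43, with 0 called by limma after adjustment and 3 at an unadjusted p of 0.05. Prm1 was at 1.00 (SE 0.29) and Tnp1 at 1.15 (SE 0.38). Among the other lists, Sertoli cell markers had 2 of 14 above 0 (median -0.28), peritubular myoid markers 1 of 9 (-0.36), spermatocyte markers 5 of 11 (-0.04), endothelial markers 2 of 8 (-0.09), macrophage markers 5 of 12 (-0.04) and the few markers of blood 1 of 3 (-0.03).

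Among relatives and partners of the members, limma called 0 genes between DEHP and vehicle mice, and at an unadjusted p of 0.05 it called 1, Hk1. The other genes of the acyl-CoA binding family had 2 of 6 differences above 0 (median -0.16). For this list and those below, the count over all genes was 7653 of 15830 above 0. Acbd4 read 0.76 and -1.58 in DEHP mice 1 and 4, against -0.81, 1.05 and 0.58 in vehicle mice 1, 2 and 4. Its mice stood in the high and low sets seen for Vdac1, and its group difference was -0.69 (SE 0.84). Acbd6 was at 0.24 (SE 0.28), but at 0.0068 without DEHP mouse 4.

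Other START domain genes, which carry lipids, had 7 of 15 differences above 0 (median -0.05). Stard3nl, which shares the membrane part of STARD3 and also sits at late endosomes, read 0.11 and 0.26 in DEHP mice 1 and 4, against 0.01, -0.24 and -0.14 in vehicle mice 1, 2 and 4. Both DEHP mice lay above all vehicle mice, as in 3.95% of all genes, and its difference of 0.31 (SE 0.20) was not called by limma. Acot11, a fatty acyl-CoA thioesterase with a START domain, was at -0.38 (SE 0.40).

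Proposed partners of TSPO and the VDACs had 8 of 20 measured genes above 0 (median -0.03). Hk1, the hexokinase that docks on VDAC, read 0.12 and 0.86 in DEHP mice 1 and 4, against -0.14, -0.22 and -0.63 in vehicle mice 1, 2 and 4. Both DEHP mice lay above the vehicle mice, as in 3.95% of all genes, and the difference of 0.82 (SE 0.30) had an unadjusted p of 0.0381 and an adjusted p of 1.00 from limma. An unadjusted p under 0.05 was found for 0.859% of all genes. Named for its low p in this list, Hk1 was at 0.45 without DEHP mouse 4, 0.49 as the mean over its probes and 1.46 with the values of the authors' deposited table. Ckmt2, a mitochondrial creatine kinase, was at 1.07 (SE 0.61), with overlapping groups, and at 0.16 without DEHP mouse 4 and 1.98 without DEHP mouse 1. Genes of the outer membrane and its import machinery had 7 of 22 above 0 (median -0.12). Mtx2, a subunit of the sorting and assembly machinery, was at -0.39 (SE 0.31) and Bnip3l, a receptor for the removal of mitochondria, at -0.44 (SE 0.25).

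Between the extracts, genes of these lists moved in both directions. In DEHP mouse 4 minus DEHP mouse 1, 2 of 6 acyl-CoA binding genes were called higher and 4 lower at a limma adjusted p of 0.05. The shares of all genes tested were 36.3% and 41.1%. START genes split 3 higher and 7 lower of 15, partners 8 and 8 of 20, and outer membrane genes 3 and 11 of 22. In vehicle mouse 1 the counts called against the other vehicle mice were 2 and 4, 6 and 7, 3 and 12, and 7 and 9 for these lists. The shares of all genes tested were 33.9% higher and 38.2% lower. These counts and those of the cell type markers rest on loess, and directions between extracts depend on the normalization.

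The dye swap set both orientations of each pair of mice side by side. A gap between them holds the dye effect of the probe as well as measurement error. For vehicle mice 1 and 2, DEHP was in Cy5 on slide 1 and in Cy3 on slide 2. Their gaps therefore also hold any difference between these slides, which cannot be told apart from dye orientation there. For vehicle mouse 4 both orientations were on slide 3. Over the 12 detected probes and the 6 pairs of mice, 57 of 72 pairs of arrays had the same sign in both orientations. Dbil5, Vdac2 and Stard3 kept their sign in 6 of 6 pairs, as did both dimmer Acbd3 probes. The brightest Acbd3 probe, which stands for the gene, did in 3 of 6 pairs, Tspo in 4 of 6 and Vdac3 in 3 of 6. The median gap between the orientations was 0.05 for Vdac2, 0.10 for Vdac3, 0.16 for Tspo and 0.30 for Stard3. In the same order, the fitted dye effects (red minus green) were -0.04, 0.04, 0.10 and -0.16. With the dye effect fitted, the residual SD of the arrays was 0.06, 0.05, 0.11 and 0.08.

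**Figure D5:**
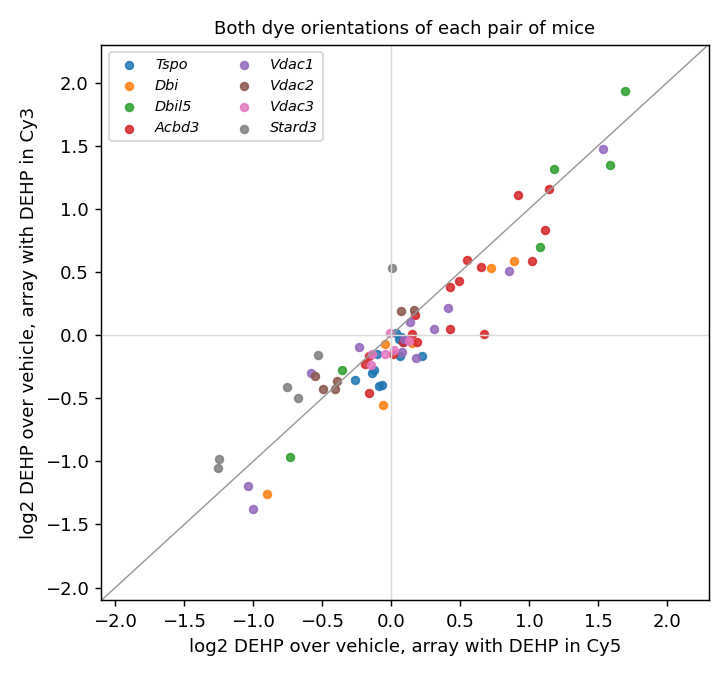
Log2 DEHP over vehicle ratio of every detected probe of the 8 genes for each of the 6 pairs of mice, from the array with DEHP RNA in Cy5 (x axis) and in Cy3 (y axis), coloured by gene, with the line of equal values. Dbil5 and Vdac1 spread furthest along the line, while Tspo and Vdac3 stay near 0, and 57 of the 72 points have the same sign on both axes.

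The closeness of 2 genes over the mice was measured as the root mean square difference of their 5 mouse values, a description that rests on 5 points from the same arrays. Among the members, Tspo and Vdac3 were closest (0.0644), both with little spread, and Dbil5 and Vdac1 were farthest apart (1.42). The little spread of Tspo, a dim probe, holds for the main processing only. There vehicle mouse 1 minus the mean of vehicle mice 2 and 4 was -0.17, against -1.06 with the scanner software's processed signals. Over all genes, Vdac1 was nearest to Psen2 (0.0325) and Slc7a8 (0.0550), Dbil5 to BC061237 (0.106) and Fam122c (0.121), and Dbi to Tnfrsf11a (0.0587) and Atad1 (0.0712). Stard3 was nearest to Dbnl (0.0523) and Alg14 (0.0743), and Acbd3 to Rbm8a (0.0391) and Ddx47 (0.0436). For Tspo the nearest was Gpam (0.0186), for Vdac2 Mrpl44 (0.0107) and Sh3glb1 (0.0354), and for Vdac3 Rnf217 (0.00777) and Ykt6 (0.0128).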

How the data were processed

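RNA of laser-captured Leydig cells was compared on 12 arrays on 3 slides. The deposited scanner files hold, per the file headers, each spot's mean intensity, its median local background and a processed intensity, made with Feature Extraction 9.5.1.1 and not normalized between arrays. Per the file headers they also hold a log10 ratio (red over green), and the deposited flags (0 or 1) tell whether a spot was saturated, outlying or well above background. The authors' deposited value table holds log2 ratios of 13669 spots, made with limma per the submitters' processing notes. Its rows were matched by the place of the spot in the scanner file, where its columns correlated at r = 0.915 to 0.993 with the scanner's ratios turned as DEHP over vehicle. The slopes were 0.842 to 0.932 and the medians -0.0569 to 0.00400. Its filter and normalization are unknown.

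All other values were computed with limma 3.58.1 in R 4.3.3. After normexp background correction (offset 50), arrays were normalized by loess, control spots at weight 0 and outlying spots (0.332% to 0.604%) left out. A log2 value per mouse and a dye effect were estimated by least squares from the 12 log ratios. No probe of the members had a saturated or missing spot. Of 41174 probes, 21197 passed the filter, and the brightest probe stood for each of 15830 genes. The groups were tested on these 5 values with limma's lmFit and eBayes (3 residual degrees of freedom) and Benjamini-Hochberg adjustment over all genes, and single mice with limma on the 12 arrays. Values per probe were adjusted over 21197 probes. The number of arrays limits the precision of a mouse's value, and the number of mice that of the group comparison. Names of 10550 genes came from the accession, 1894 from a current and 971 from an older symbol, and 2415 are the file's.

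Named genes were all members, from each related list the 2 of lowest unadjusted p, Star, Cyp11a1, Insl3, Prm1 and Tnp1, and the 2 nearest genes of each member, of which 1 is not reported here. Members, lists and contrasts were chosen with earlier results of these data known. The functions were tested on simulated arrays. Alternatives covered background, normalization, filter, probes per gene, dye, slide, replication, left-out mice and the authors' table.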

Additional observations from a re-analysis of the deposited data

How the results depend on the processing

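With 2 DEHP and 3 vehicle mice only large differences could pass, and Tspo lies near background. The count of members called between DEHP and vehicle mice was 0 in each setting run, each mouse left out included (0 to 0), except with the 12 arrays taken as independent, where it was 1 (Stard3) and 2123 genes in all. Where a DEHP mouse was left out, the lone remaining one was assumed to vary like the vehicle mice. Group differences changed sign under median centring of each array for Dbi (0.014) and Vdac3 (0.051), in the authors' table for Dbi (0.0041), on slides 1 and 2 alone, which is the set without vehicle mouse 4 (slide and mouse cannot be told apart), for Dbi (0.34), Vdac1 (0.15) and Insl3 (0.070), with DEHP in Cy5 for Dbi (0.13) and Vdac1 (0.022), and with DEHP in Cy3 for Star (-0.053). Slide 3 alone, a value with no test, gave -0.69 for Dbi. With the mouse number as a replicate block, which leaves out vehicle mouse 2 and gives the differences without it, 0 members were called, and Acbd3 was at -0.039 and Vdac1 at 0.21. The numbers were not taken to pair the animals. DEHP 1 and vehicle 1 correlated at -0.732, and DEHP 4 and vehicle 4 at -0.557. The swapped pairs gave the same values with opposite sign (DEHP 4 and vehicle 1 at 0.732, DEHP 1 and vehicle 4 at 0.557). These correlations therefore cannot decide whether the numbers pair the animals. Leaving out each mouse in turn gave -0.37 to 0.35 for Dbi, -0.039 to 0.28 for Acbd3, -0.66 to 0.53 for Vdac1, -0.69 to 0.84 for Star, -1.29 to 0.53 for Cyp11a1, -1.42 to 0.78 for Insl3, -0.99 to 0.22 for Acot11 and -1.86 to 0.48 for Acbd4. DEHP mouse 4 minus DEHP mouse 1 changed sign under median centring for Tspo (0.036), Dbi (0.065), Acbd3 (0.50), Vdac2 (1.08), Vdac3 (0.99) and Stard3 (0.14), with the mean over probes for Acbd3 (0.51) and in the authors' table for Vdac2 (0.060). Vehicle mouse 1 minus vehicle mice 2 and 4 changed sign for Vdac3 (0.20) under median centring. The authors' table holds 6 of the 8 members, without Tspo and Dbil5, and called 3 and 5 of them in these contrasts, against 5 and 8 of 8. Among the members it holds, only Vdac3 lost its call, in each contrast. For Tspo the vehicle contrast was -0.09 with no background subtraction (limma adjusted p 0.382). It was -1.06 with the scanner software's processed signals (limma adjusted p 0.000441). The cause of these changes was not tested.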
